A study of Mus musculus with 14 samples.

Results

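The genes described here are 9 that oligodendrocytes use to make and hold myelin, measured in the striatum of R6/2 and wild-type mice. They were chosen by name, as every probe set whose platform symbol was Ugt8a, Aspa, Cldn11, Mobp, Mbp, Mog, Mag, Cnp or Car2. This gave 21 of the 22626 probe sets tested, and 9 of the 12393 genes with a named probe set. A probe set is a group of short array probes read together as 1 transcript signal. Mbp had 8 probe sets, Mobp and Cnp had 3 each, Ugt8a had 2, and the other 5 genes had 1 each. Ugt8a and Aspa were taken as lipid synthesis genes, Cldn11, Mobp, Mbp, Mog, Mag and Cnp as structural genes, and Car2 stood by itself.

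The mice compared were R6/2 mice of 6 weeks on a CBAxC57BL/6 background, set against wild-type mice of the same age and background. R6/2 mice model Huntington disease through a transgene of exon 1 of human HTT with an expanded CAG repeat, driven by the human HTT promoter, so the transgene is not limited to 1 cell type. Mice of both genotypes were controls of drug studies and had received saline 30 to 60 minutes before they were killed. The title of each of the 14 arrays starts with M.C or with Mith, and this start was taken as a cohort, with 4 R6/2 and 4 wild-type arrays in M.C and 3 R6/2 and 3 wild-type arrays in Mith. For each genotype, M.C holds replicates 1 to 4 and Mith holds replicates 5 to 7, and the numbers pair no arrays. Since no label ties an array to an animal of its own, the spread behind each p-value is that between arrays and may be technical, and precision is limited by how few arrays there were.

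Oligodendrocytes wrap axons of the central nervous system in compacted membrane, which lets action potentials jump between gaps in the sheath. That membrane is rich in galactolipids, above all galactosylceramide and its sulphated form, and in cholesterol, and a small set of abundant proteins holds its layers together. In the striatum the sheaths lie mostly around bundles of passing axons of the internal capsule, and in young mice the amount of myelin is still growing. Ugt8a encodes the ceramide galactosyltransferase that makes galactosylceramide. Aspa encodes aspartoacylase, which splits N-acetylaspartate and so frees acetate that oligodendrocytes can use for fatty acid synthesis.

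The stretches around the annotated starts of 5 of the genes are printed because these genes span the range of the results below, Ugt8a and Mobp at the strong end and Mog at the weak end, with Mag and Cnp between them. Sequences and coordinates are those of RefSeq on GRCm38.p6, 5′ to 3′ on the gene's strand, with 250 bases before and 50 bases after the start. The table held 7 of the 9 genes, with no entry for Car2 and Mbp. Capitals mark CTGGCAC, a form of the motif of the oligodendrocyte factor MYRF, on either strand.
Ugt8a, chr3:125938603-125938902, minus strand: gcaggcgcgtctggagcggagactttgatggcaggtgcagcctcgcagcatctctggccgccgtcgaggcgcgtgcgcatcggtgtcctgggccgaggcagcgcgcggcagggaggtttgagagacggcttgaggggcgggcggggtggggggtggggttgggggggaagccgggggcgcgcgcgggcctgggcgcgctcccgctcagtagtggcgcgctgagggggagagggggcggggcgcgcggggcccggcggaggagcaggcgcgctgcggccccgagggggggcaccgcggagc
Mobp, chr9:120149492-120149791, plus strand: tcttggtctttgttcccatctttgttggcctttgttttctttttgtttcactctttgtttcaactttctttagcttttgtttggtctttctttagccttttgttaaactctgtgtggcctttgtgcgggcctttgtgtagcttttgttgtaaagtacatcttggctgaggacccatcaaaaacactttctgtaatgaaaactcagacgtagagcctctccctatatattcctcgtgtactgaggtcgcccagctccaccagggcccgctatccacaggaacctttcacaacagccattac
Mag, chr7:30914814-30915113, minus strand: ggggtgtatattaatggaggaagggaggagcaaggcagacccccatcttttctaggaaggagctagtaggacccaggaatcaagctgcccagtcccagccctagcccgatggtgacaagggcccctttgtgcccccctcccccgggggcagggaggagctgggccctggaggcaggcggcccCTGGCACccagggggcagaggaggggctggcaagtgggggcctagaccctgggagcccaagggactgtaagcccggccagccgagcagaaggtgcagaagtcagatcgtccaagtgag
Cnp, chr11:100574689-100574988, plus strand: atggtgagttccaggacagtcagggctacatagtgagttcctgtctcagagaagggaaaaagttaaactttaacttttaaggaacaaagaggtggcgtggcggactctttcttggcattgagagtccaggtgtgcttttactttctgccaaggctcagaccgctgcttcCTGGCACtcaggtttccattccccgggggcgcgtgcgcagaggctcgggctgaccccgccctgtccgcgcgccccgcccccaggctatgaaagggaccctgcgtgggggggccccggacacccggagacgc
Mog, chr17:37023349-37023648, minus strand: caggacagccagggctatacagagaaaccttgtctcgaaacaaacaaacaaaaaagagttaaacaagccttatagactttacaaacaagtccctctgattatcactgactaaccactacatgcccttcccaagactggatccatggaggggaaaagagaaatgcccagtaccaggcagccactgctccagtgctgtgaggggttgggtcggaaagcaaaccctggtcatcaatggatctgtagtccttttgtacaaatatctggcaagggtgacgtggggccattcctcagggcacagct

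CTGGCAC was found in promoters of 2 of the 7 genes, Mag and Cnp, 68 bases and 81 bases before the start. The table holds 3 starts of Mag, of which the first is printed, and the motif is 9 bases before the second and not in the stretch of the third. It is held by 5.01% of the 32851 promoters of the same length in the table, and by promoters of 5.73% of its genes. Of the other motifs searched on both strands, AACAAT (a core of SOX factor sites, in 10.7% of all promoters), CAGATG (an E-box, in 17.2%) and TATAAA (in 13.6%) were each in promoters of 1 of the 7 genes. CATATG, another E-box, is in 3.91% of all promoters and was in none of the 7 genes'. The Ugt8a stretch was 78.3% G and C, the Mag stretch 65.0%, the Cnp stretch 59.7%, the Mog stretch 48.3% and the Mobp stretch 43.3%, where the median of all promoters was 52.7%. A match is a description of letters and not of a bound site.

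Values are deposited log2 signals, centred so that every array has the same median, and a difference of 1 is a factor of 2. The deposited values ran from 2.96 to 14.5, with array medians between 7.07 and 7.17. Changes are R6/2 minus wild-type in a fit that includes cohort, ± gives the SE of a change, and a call is a limma adjusted p under 0.05 over all 22626 probe sets. The 5′ to 3′ gradient of the Actb controls (log2 of the 3′ minus the 5′ probe set), a measure of how far RNA is degraded or incompletely copied, was 0.61 ± 0.18 on R6/2 arrays and 0.37 ± 0.14 on wild-type arrays (SD, n = 7 each). The same value for Gapdh was 0.22 ± 0.21 on R6/2 arrays and 0.03 ± 0.07 on wild-type arrays. R6/2 replicate 4 had a mean Spearman correlation of 0.981 with its cohort, the lowest of the 14 arrays. Each member change below was also fitted with this Actb value as a covariate and with each array left out.

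Myelin genes were lower in R6/2 striatum, but unevenly so. Ugt8a, Cldn11, Car2 and Mobp stood at 57.9% to 66.8% of the wild-type signal, Cnp and Mag at 78.6% and 81.4%, and Mog at 97.5%. In all, 6 of the 9 genes fell, 0 rose, and Aspa, Mbp and Mog were not called. The median change of the 9 genes was -0.35, against 0.01 over all 12393 genes, of which 2.08% were called lower in R6/2. Among probe sets, 11 of 21 fell and 0 rose, where 2.55% of all probe sets were called and 2.19% were called lower. Fewer oligodendrocytes in the sample and less of each transcript per oligodendrocyte cannot be told apart in such bulk RNA.

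**Figure D1:**
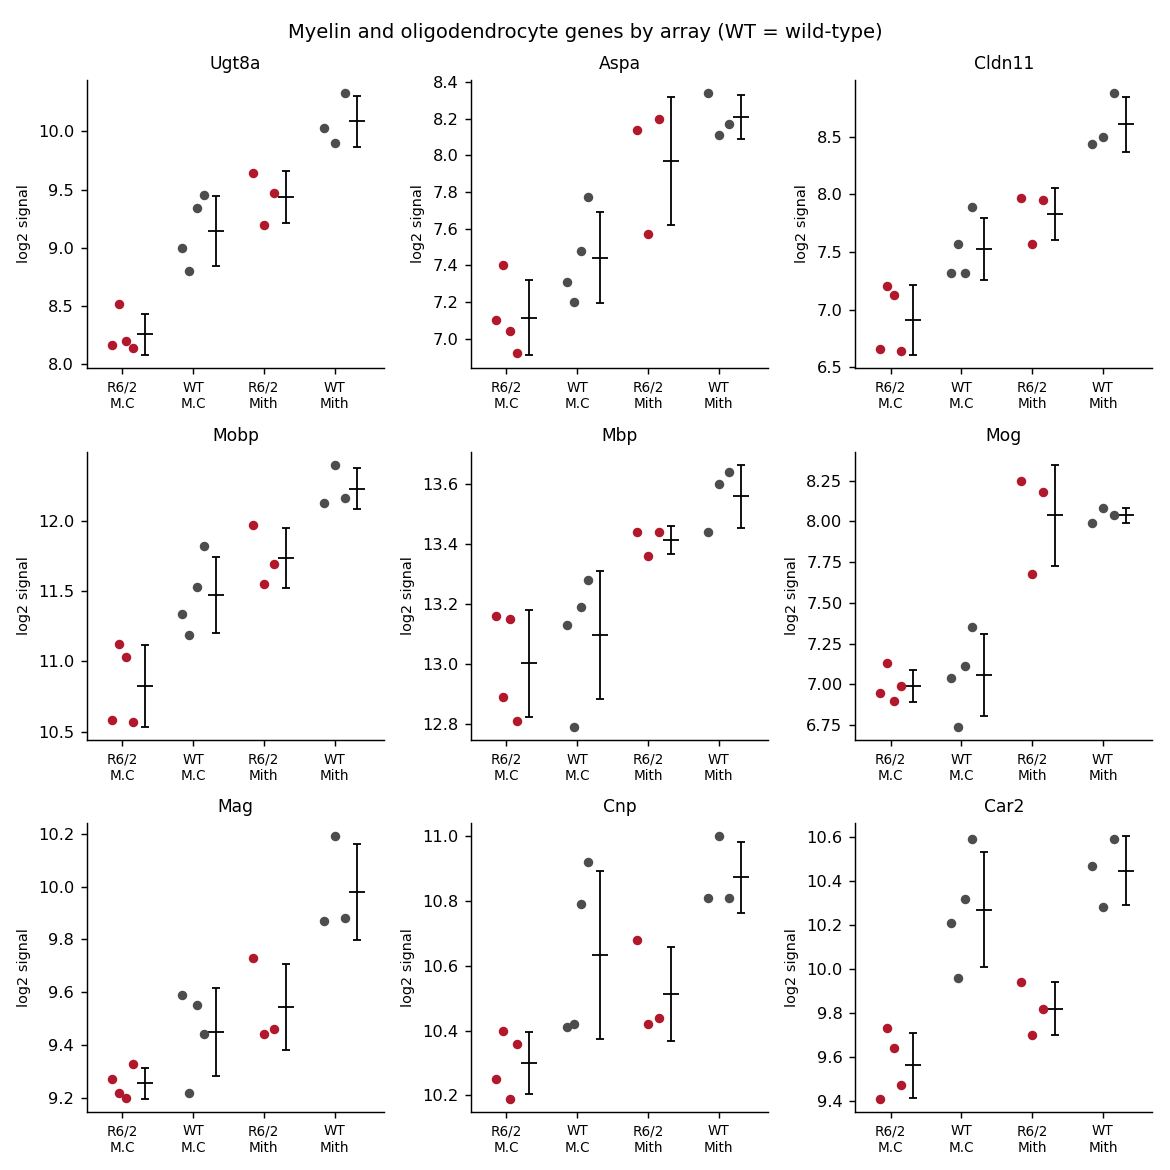
Centred log2 signal (vertical axes, each with its own range that does not start at 0) of the representative probe set of each of the 9 genes. Points are arrays, in the order R6/2 M.C, wild-type M.C, R6/2 Mith and wild-type Mith, and bars give the mean and SD of 4 arrays per M.C group and 3 per Mith group. All but Car2 lay lower in M.C than in Mith to a called degree, and Mog shows the cohort step without a genotype step.

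**Figure D2:**
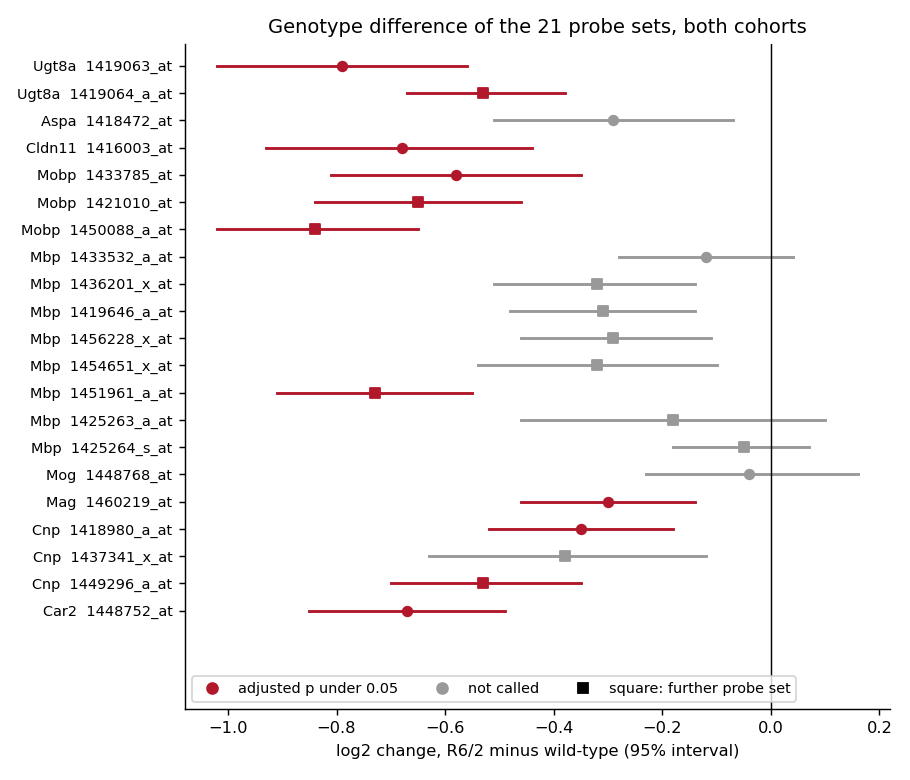
Log2 change, R6/2 minus wild-type in the fit over both cohorts, of all 21 probe sets (horizontal axis), with 95% intervals from limma. Red marks an adjusted p under 0.05, circles the probe set that stands for its gene and squares the further probe sets. The point estimates run from -0.84 for a Mobp probe set to -0.04 for Mog, all of them below 0.

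Ugt8a, the galactosylceramide-making enzyme, had the lowest R6/2 level relative to wild-type when each gene is read by its representative probe set. With probe sets averaged it had a change of -0.66, close to Mobp (-0.69), Cldn11 (-0.68) and Car2 (-0.67). In M.C its signal was 8.17, 8.52, 8.20 and 8.14 on R6/2 arrays, against 9.0, 8.80, 9.34 and 9.45 on wild-type arrays. In Mith it was 9.64, 9.20 and 9.47 on R6/2 arrays, against 10.03, 9.90 and 10.33 on wild-type arrays. Every R6/2 array thus lay below every wild-type array of its own cohort, while the R6/2 arrays of Mith overlapped the wild-type arrays of M.C. The change over both cohorts was -0.79 ± 0.11 (limma adjusted p = 0.00148), or -0.89 in the M.C arrays and -0.65 in the Mith arrays. The second Ugt8a probe set also did not overlap in either cohort and fell by 0.53 ± 0.07 on the log2 scale (limma adjusted p = 0.00139). Both probe sets kept their calls in each of the 14 fits with 1 array left out, and with the Actb covariate (-0.83 and -0.45, limma adjusted p = 0.0332 and 0.0465).

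Aspa was not called. It read 7.10, 7.40, 7.04 and 6.92 on R6/2 arrays of M.C, against 7.31, 7.20, 7.48 and 7.77 on wild-type arrays, and 8.14, 7.57 and 8.20 on R6/2 arrays of Mith, against 8.34, 8.11 and 8.17 on wild-type arrays. The genotypes overlapped in both cohorts. The change was -0.29 ± 0.11 (95% interval -0.51 to -0.07, limma adjusted p = 0.179), which leaves R6/2 at 81.8% of wild-type. With the Actb covariate the change was -0.46 (limma adjusted p = 0.149).

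Among the structural genes, Cldn11 and Mobp had the lowest R6/2 levels. Cldn11 encodes claudin 11, the protein of the tight junctions that seal myelin layers along their edges. It read 6.66, 7.21, 7.13 and 6.64 on R6/2 arrays of M.C, against 7.32, 7.57, 7.32 and 7.89 on wild-type arrays. In Mith it was 7.97, 7.57 and 7.95 on R6/2 arrays, against 8.44, 8.50 and 8.88 on wild-type arrays. There was no overlap within either cohort. Cldn11 fell by 0.68 ± 0.12 on the log2 scale (limma adjusted p = 0.00492), or -0.61 in the M.C arrays and -0.78 in the Mith arrays. It kept its call in each of the 14 fits with 1 array left out, but not with the Actb covariate, where the change was -0.72 and the limma adjusted p 0.0727.

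Mobp encodes a small basic protein of compact myelin and was read by 3 probe sets. The brightest gave 10.58, 11.12, 11.03 and 10.57 on R6/2 arrays of M.C, against 11.34, 11.19, 11.53 and 11.82 on wild-type arrays. In Mith it gave 11.97, 11.55 and 11.69 on R6/2 arrays, against 12.13, 12.40 and 12.16 on wild-type arrays. All 3 probe sets separated the genotypes within each cohort and all 3 fell, with changes of -0.58 ± 0.11, -0.65 ± 0.09 and -0.84 ± 0.09 (limma adjusted p = 0.0105, 0.00152 and 3.95e-04). The last of these, 1450088_a_at, stood at 56.0% of wild-type, the lowest share of the 21 probe sets. Its 7 R6/2 arrays ranged from 8.71 to 10.37, where the wild-type arrays ranged from 9.88 to 10.96. With the Actb covariate the 3 changes were -0.70, -0.60 and -0.72 and stayed called.

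Mbp, the basic protein that draws the inner faces of the myelin membrane together, gave the most mixed picture. Its representative probe set, 1433532_a_at, was among the brightest on the array, with 0.0177% of probe sets brighter. It read 13.16, 12.89, 13.15 and 12.81 on R6/2 arrays of M.C, against 13.13, 12.79, 13.19 and 13.28 on wild-type arrays, and 13.44, 13.36 and 13.44 on R6/2 arrays of Mith, against 13.44, 13.60 and 13.64 on wild-type arrays. The genotypes overlapped in M.C. In Mith they did not, although the closest arrays of both read 13.44 once rounded. The change was -0.12 ± 0.08 (limma adjusted p = 0.517), or 92.2% of wild-type.

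A dimmer Mbp probe set, 1451961_a_at, behaved otherwise. It read 11.25, 10.88, 11.24 and 11.33 on R6/2 arrays of M.C, against 11.80, 11.61, 12.05 and 12.08 on wild-type arrays. In Mith it read 11.60, 11.58 and 11.42 on R6/2 arrays, against 12.13, 12.43 and 12.34 on wild-type arrays. All 7 R6/2 arrays lay below all 7 wild-type arrays, across the cohorts as well. The change was -0.73 ± 0.08 (limma adjusted p = 8.87e-04), or 60.1% of wild-type, or -0.71 in the M.C arrays and -0.76 in the Mith arrays. It stayed called in each of the 14 fits with 1 array left out and with the Actb covariate (-0.62, limma adjusted p = 0.0304).

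The other Mbp probe sets lay between these or were flat. Those at mean signals of 12.62, 12.38, 12.10 and 12.06 had changes from -0.32 to -0.29 with limma adjusted p between 0.0506 and 0.130. The dimmest pair, 1425263_a_at at 8.75 and 1425264_s_at at 8.64, had changes of -0.18 ± 0.13 and -0.05 ± 0.06 (limma adjusted p = 0.577 and 0.742). So 1 of 8 probe sets was called. When the 8 were averaged before the fit, Mbp fell by 0.29 ± 0.06 on the log2 scale (limma adjusted p = 0.0205), so the call for this gene turned on which probe sets stood for it. Mbp is transcribed into several spliced forms, and which of them each probe set reads was not analysed here.

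**Figure D3:**
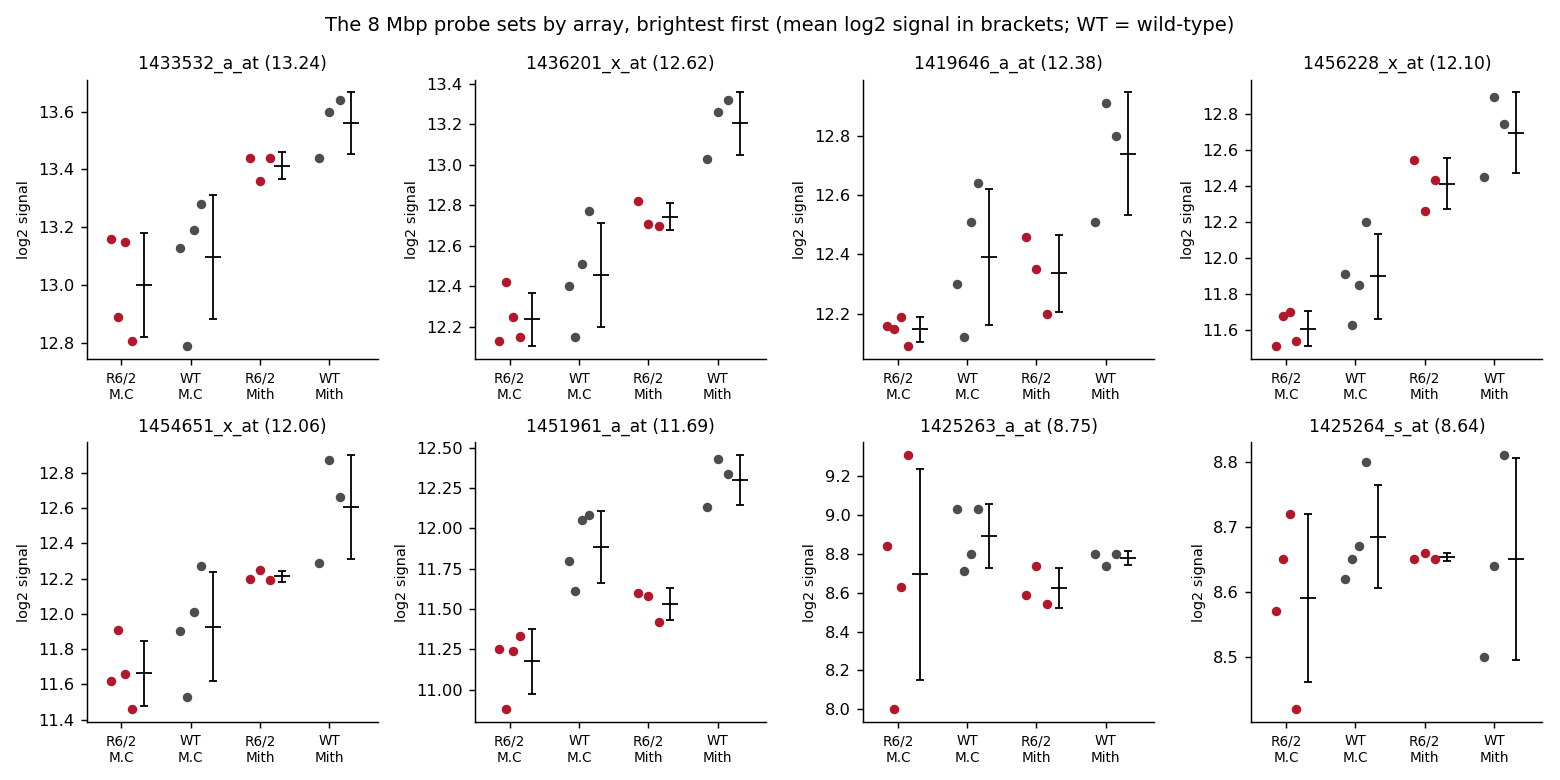
Centred log2 signal of the 8 Mbp probe sets by array (vertical axes, each with its own range that does not start at 0), ordered by mean signal from 13.24 to 8.64. Points are arrays in the order R6/2 M.C, wild-type M.C, R6/2 Mith and wild-type Mith, and bars give mean and SD. 1451961_a_at is the probe set in which all 7 R6/2 arrays lie below all 7 wild-type arrays.

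Mog, a glycoprotein of the outermost myelin surface, showed no genotype difference that could be detected. Its 1 probe set was among the dimmer members, with a mean signal of 7.46 (40.6% of probe sets brighter), against 7.65 for Cldn11. In M.C its means of 6.99 in R6/2 and 7.06 in wild-type lay near the array medians. It read 6.95, 7.13, 6.90 and 6.99 on R6/2 arrays of M.C, against 7.04, 6.74, 7.11 and 7.35 on wild-type arrays. In Mith it read 8.25, 7.68 and 8.18 on R6/2 arrays, against 7.99, 8.08 and 8.04 on wild-type arrays. The genotypes overlapped in both cohorts, and the highest Mog signal of all was on an R6/2 array. The change was -0.04 ± 0.09 (limma adjusted p = 0.901), with a 95% interval from -0.23 to 0.16. Of the other genes' point estimates, only that of Mbp lay within this interval. The intervals of Cnp (-0.52 to -0.18), Aspa (-0.51 to -0.07) and Mag (-0.46 to -0.14) overlapped it, and differences between genes were not tested. In Mith alone the R6/2 mean was 8.04, the same as in wild-type.

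Mag encodes the glycoprotein of the membrane next to the axon, and Cnp an enzyme that keeps cytoplasmic channels in myelin open. Mag read 9.27, 9.22, 9.20 and 9.33 on R6/2 arrays of M.C, against 9.59, 9.22, 9.55 and 9.44 on wild-type arrays, and 9.73, 9.44 and 9.46 on R6/2 arrays of Mith, against 9.87, 10.19 and 9.88 on wild-type arrays. The genotypes overlapped in M.C and did not in Mith. Mag fell by 0.30 ± 0.08 on the log2 scale (limma adjusted p = 0.0482), or -0.19 in the M.C arrays and -0.44 in the Mith arrays. That call was lost in 10 of the 14 fits with 1 array left out, where the limma adjusted p reached 0.109, and with the Actb covariate, where the change stayed at -0.30 (limma adjusted p = 0.260). The Mag call was also lost under quantile normalization (-0.24, limma adjusted p = 0.196).

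Cnp read 10.25, 10.40, 10.19 and 10.36 on R6/2 arrays of M.C, against 10.41, 10.42, 10.79 and 10.92 on wild-type arrays, and 10.68, 10.42 and 10.44 on R6/2 arrays of Mith, against 10.81, 11 and 10.81 on wild-type arrays. The genotypes did not overlap in either cohort, though in M.C the highest R6/2 array, at 10.40, lay next to the lowest wild-type array, at 10.41. Cnp fell by 0.35 ± 0.08 on the log2 scale (limma adjusted p = 0.0299), a call lost in 8 of the 14 fits with 1 array left out and with the Actb covariate, where the change was -0.36 (limma adjusted p = 0.197). This call was also lost under quantile normalization (-0.28, limma adjusted p = 0.109). A second Cnp probe set, 1449296_a_at, fell by 0.53 ± 0.08 (limma adjusted p = 0.00297) and kept its call in each of those 14 fits, but not with the Actb covariate (-0.37, limma adjusted p = 0.116). The third, 1437341_x_at, had a change of -0.38 ± 0.12 (limma adjusted p = 0.119).

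Car2 encodes carbonic anhydrase 2, a soluble enzyme of oligodendrocytes that balances carbon dioxide and bicarbonate. It read 9.41, 9.73, 9.64 and 9.47 on R6/2 arrays of M.C, against 10.21, 9.96, 10.32 and 10.59 on wild-type arrays, and 9.94, 9.70 and 9.82 on R6/2 arrays of Mith, against 10.47, 10.28 and 10.59 on wild-type arrays. All 7 R6/2 arrays lay below all 7 wild-type arrays. Car2 fell by 0.67 ± 0.09 on the log2 scale (limma adjusted p = 9.62e-04), to 62.8% of wild-type, or -0.70 in the M.C arrays and -0.63 in the Mith arrays. The call stood in each of the 14 fits with 1 array left out and with the Actb covariate (-0.72, limma adjusted p = 0.0220).

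Changes of lipid synthesis and structural genes covered overlapping ranges, -0.79 and -0.29 for the lipid genes and -0.68 to -0.04 for the structural ones. The mean change was -0.54 over Ugt8a and Aspa and -0.34 over the 6 structural genes, a difference of -0.19, with a spread of 0.14 (SD) between arrays of a group. This difference was -0.28 within M.C arrays and -0.08 within Mith arrays, and -0.07 when each gene's probe sets were averaged. Ugt8a lay near Cldn11 and Mobp, and Aspa lay near Mag and Cnp. The contrast is a description with no test, since a score over chosen genes has none.

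By representative probe sets, the widest gap within the group was between Ugt8a and Mog, a pair picked after the values were seen. With probe sets averaged, Mobp, Cldn11 and Car2 lay slightly further from Mog (-0.04) than Ugt8a did. On each array, Ugt8a minus Mog ranged from 1.15 to 1.39 in R6/2 and from 1.96 to 2.23 in wild-type arrays of M.C. It ranged from 1.29 to 1.52 in R6/2 and from 1.82 to 2.29 in wild-type arrays of Mith. The genotypes did not overlap over the 14 arrays, and the cohorts lay at like levels within each genotype. These probe sets differ in brightness, so the size of the difference itself is no ratio of transcripts.

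**Figure D4:**
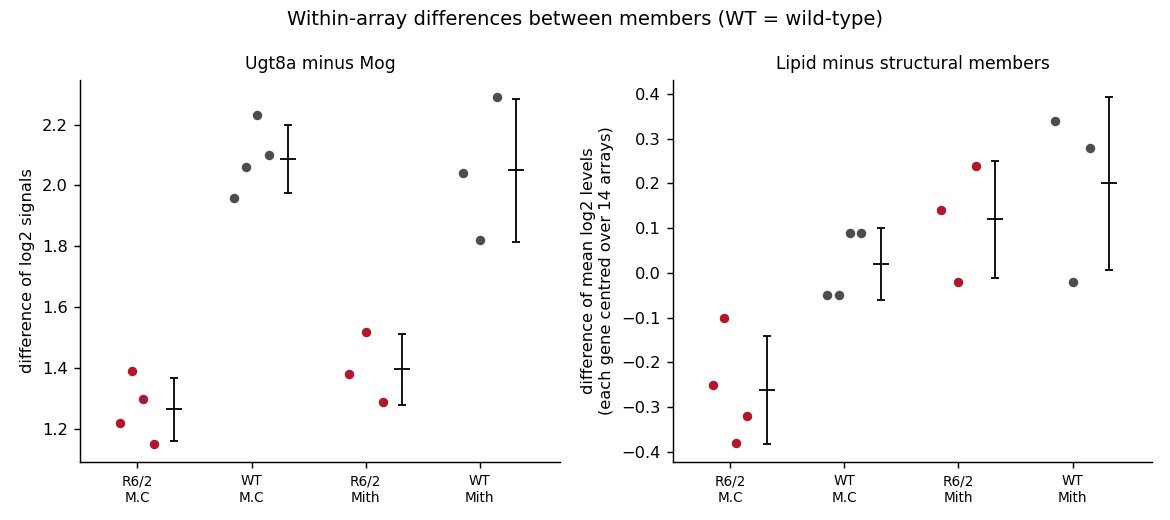
Left, Ugt8a minus Mog log2 signal on each array. Right, the mean of the 2 lipid synthesis genes minus the mean of the 6 structural genes, each gene centred over the 14 arrays. Points are arrays in the order R6/2 M.C, wild-type M.C, R6/2 Mith and wild-type Mith, with mean and SD, and axes do not start at 0. The left plot has no overlap between genotypes, and the right plot has overlap in Mith.

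Within single cohorts fewer of the genes passed the test. In M.C, 2 of 9 genes were called, Ugt8a and Car2, and 7 of 21 probe sets, all lower in R6/2, where 2.47% of all probe sets were called. The count of genes moved between 1 without R6/2 replicate 1 and 4 without R6/2 replicate 2. In Mith, limma called 0 of 9 genes and 0% of all probe sets, with 2008 of 22626 probe sets and 6 of the 9 genes at an unadjusted p under 0.05. Among member probe sets, Mbp 1451961_a_at had the smallest limma adjusted p there, 0.0846 (unadjusted p = 1.84e-05). It shared that adjusted p with the probe set of smallest unadjusted limma p on the array (1.06e-05). The median change of the 9 genes was -0.34 in M.C and -0.44 in Mith.

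Separation of single arrays mostly followed the size of the change within a cohort, with Aspa against Mbp in Mith as the exception. Every R6/2 array was below every wild-type array of M.C for 5 of the 9 genes (Ugt8a, Cldn11, Mobp, Cnp and Car2), which held for 6.33% of all probe sets. In Mith it was so for 7 genes, those 5 with Mbp and Mag, against 6.34% of all probe sets, while Aspa, with a larger change than Mbp over both cohorts, overlapped in each. For 5 genes it held in both cohorts, against 1.05% of all probe sets. Among member probe sets the counts were 10 in M.C, 16 in Mith and 10 in both. Over all 14 arrays it held for 2 member probe sets, those of Car2 and Mbp 1451961_a_at, and the share of all probe sets was not worked out. Separation across cohorts also depends on the cohort difference. M.C minus Mith, it was -0.22 for Car2 and -0.39 for Mbp 1451961_a_at, against -1.06 for Ugt8a.

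A difference in the genotype change between cohorts was not detected for any member. The interaction, M.C minus Mith, ran from -0.24 for Ugt8a to 0.24 for Mag, with a smallest limma adjusted p of 0.583. It was called in 0 of 9 genes and in 0% of all probe sets, with 0 of the 9 genes and 2213 of all probe sets at an unadjusted p under 0.05. The 95% intervals were wide, from -0.69 to 0.22 for Ugt8a and from -0.07 to 0.55 for Mag.

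Most of these genes differed more between cohorts than between genotypes, 7 of the 9 by the size of the fitted difference. With genotype as a term, 8 of 9 genes and 18 of 21 probe sets were lower in M.C than in Mith, with a median gene difference of -0.81. Of all probe sets, 32.3% differed between cohorts and 17.0% were lower in M.C. The difference, M.C minus Mith, was -1.06 ± 0.11 for Ugt8a (limma adjusted p = 4.88e-06), -1.01 ± 0.09 for Mog (1.72e-06) and -1.0 ± 0.12 for Cldn11 (1.58e-05). Car2 was the exception, with a difference of -0.22 ± 0.09 (limma adjusted p = 0.0619), and Cnp was close to it at -0.22 ± 0.08 (0.0431). Mog thus differed between cohorts about as far as Ugt8a and Cldn11, and not detectably between genotypes.

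Genes of the thalamus, a region near the striatum with its own myelinated fibres, also differed between cohorts, and in Mith their mean level did not overlap between genotypes. Over 10 such genes the mean level, centred over the 14 arrays, ran from -0.14 to 0.31 on R6/2 and from 0.32 to 0.98 on wild-type arrays of Mith. In M.C it ran from -0.54 to -0.07 on R6/2 and from -0.32 to -0.14 on wild-type arrays, so that the genotypes overlapped. The median thalamic change was -0.10 within M.C, where 1 of the 10 genes was called, against -0.58 within Mith, where 0 were, and the median cohort difference, M.C minus Mith, was -0.67. Of the 10 genes, 1 fell, Tnnt1 (a slow troponin, -0.57 ± 0.11, limma adjusted p = 0.0105, and the gene called in M.C at -0.44), and the brightest, Calb2, which encodes calretinin, had a change of -0.32 ± 0.17 (0.408). The part of the thalamic genes in the member changes and in the cohort difference was not tested. Within M.C, where the mean thalamic level overlapped between genotypes, the member changes were -0.89 for Ugt8a, -0.70 for Car2, -0.65 for Mobp, -0.61 for Cldn11, -0.34 for Cnp, -0.33 for Aspa, -0.19 for Mag, -0.09 for Mbp and -0.07 for Mog.

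**Figure D5:**
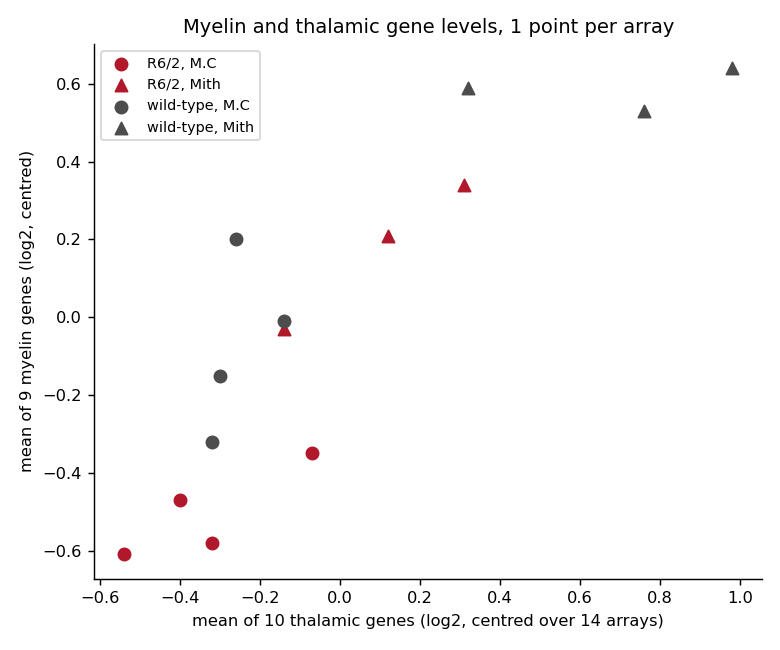
Mean log2 level of the 9 myelin genes (vertical axis) against that of 10 thalamic genes (horizontal axis), each gene centred over the 14 arrays, 1 point per array. Circles are M.C and triangles Mith, red R6/2 and grey wild-type. Wild-type Mith arrays are highest on both axes, and in M.C the genotypes overlap along the thalamic axis.

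Further myelin and oligodendrocyte genes were lower in smaller number. Of 40 listed, 29 were measured, and 7 fell, 0 rose and 22 were not called, with a median change of -0.19 against 0.01 over all genes. Tspan2, a tetraspanin of differentiating oligodendrocytes, fell by 0.67 ± 0.11 on the log2 scale (limma adjusted p = 0.00295). Mal, a lipid-raft protein of compact myelin, averaged 10.24 ± 0.33 in R6/2 and 10.86 ± 0.30 in wild-type arrays (SD, n = 7 each) and fell by 0.62 ± 0.10 (limma adjusted p = 0.00426). Cryab, a small heat shock protein also made by other glia, fell by 0.55 ± 0.09 (limma adjusted p = 0.00295), with -0.46 and 0.03 at its other probe sets. Gamt, which makes creatine, fell by 0.28 ± 0.06 (limma adjusted p = 0.0152). Qdpr, Klk6 and Pmp22 were the other calls, at 76.4%, 85.0% and 80.3% of wild-type. With the Actb covariate 3 of the 29 genes were called and the median was -0.23.

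Few transcription factors of the lineage passed the test, though 7 of the 8 measured had a change below 0. Of the 8, 1 fell, Olig2, a factor of both precursors and mature cells (-0.27 ± 0.06, limma adjusted p = 0.0212), and the median was -0.24. Olig2 is a dim probe set with a mean signal of 6.71, and its change was -0.39 in M.C and -0.10 in Mith. Sox10, which drives many myelin genes, had a change of -0.14 ± 0.06 (limma adjusted p = 0.302). With the Actb covariate 0 of the 8 were called and the median was -0.27.

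The pathways that feed myelin lipid were lower in part. Of 12 galactolipid and sphingolipid genes measured, 1 fell. This was Fa2h, which hydroxylates the fatty acids of myelin galactolipids, at 9.59 ± 0.22 in R6/2 and 9.96 ± 0.28 in wild-type arrays (SD, n = 7 each), a change of -0.37 ± 0.08 (limma adjusted p = 0.0212). The Fa2h call was lost with the Actb covariate (-0.47, limma adjusted p = 0.0654) and under quantile normalization (-0.31, limma adjusted p = 0.0629). Gal3st1, which sulphates galactosylceramide, had a change of -0.24 ± 0.07 (limma adjusted p = 0.0738). The list's median was -0.07, and its lowest change, that of Fa2h, was smaller in size than that of Ugt8a. These values are for bulk tissue and not for oligodendrocytes alone.

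Of 13 fatty acid genes, 5 fell and 0 rose, with a median of -0.27. Fads2, a desaturase, fell by 0.47 ± 0.09 on the log2 scale (limma adjusted p = 0.0127), and Acly, which makes acetyl-CoA from citrate, had a change of -0.40 ± 0.10 (0.0431). Scd2, the main stearoyl-CoA desaturase of brain, fell by 0.35 ± 0.08 (limma adjusted p = 0.0326), and its other probe sets had changes of -1.14 and -0.69. Elovl5 and Elovl1, which lengthen fatty acids, stood at 81.4% and 84.8% of wild-type. Of 17 cholesterol synthesis genes, 3 fell and 0 rose, with a median of -0.22. They were Hmgcs1, Idi1 and Msmo1, enzymes of the mevalonate and sterol steps, with changes of -0.48, -0.37 and -0.40 over both cohorts. The Hmgcs1 change was -0.65 in the M.C arrays and -0.25 in the Mith arrays, and all 3 genes were called in M.C. With the Actb covariate 0 fatty acid and 0 cholesterol genes were called, with medians of -0.27 and -0.26. Neurons and astrocytes also make fatty acids and sterols, so these lists are not particular to oligodendrocytes.

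Over both cohorts, lists of other cells had median changes nearer 0 than the members' -0.35, apart from that of striatal neurons. Of 5 genes of oligodendrocyte precursors, 1 fell, Bcan, a matrix proteoglycan that astrocytes make as well (-0.27 ± 0.06, limma adjusted p = 0.0254), and the median was -0.14. The Bcan call was lost with the Actb covariate (-0.29, limma adjusted p = 0.150) and under quantile normalization (-0.19, limma adjusted p = 0.124). In M.C the mean precursor level did not overlap between genotypes, at -0.03 to 0.06 on R6/2 and 0.1 to 0.23 on wild-type arrays. In Mith the precursor level overlapped, and its part in the member changes was not tested. Of 8 astrocyte genes 0 were called, with a median of -0.21, and the brightest, Aldoc, had a change of -0.27 ± 0.09 (limma adjusted p = 0.154). That 0 held with the Actb covariate and without the cohort term, while 1 was called under 5 other settings (quantile normalization among them) and 2 with array weights or averaged probe sets. In M.C, 2 of the 8 were called, Gja1 and Slc1a3, at -0.72 and -0.56. The astrocyte level ran from -0.28 to 0.13 on R6/2 and from 0.04 to 0.30 on wild-type arrays. It was thus lower in most R6/2 arrays. In M.C it did not overlap between genotypes, at -0.28 to -0.12 on R6/2 and 0.05 to 0.19 on wild-type arrays. In Mith it overlapped, at -0.14 to 0.13 on R6/2 and 0.04 to 0.30 on wild-type arrays. The part of the astrocyte level in the member changes was not tested. Of 8 microglia genes 0 were called, with a median of -0.10 and Csf1r at 0.03 ± 0.06. In M.C the microglia level did not overlap between genotypes either, at -0.17 to -0.03 on R6/2 and 0.03 to 0.21 on wild-type arrays. In Mith it overlapped, and its part in the member changes was not tested. Of 6 endothelial genes 0 were called, with a median of -0.07 and Slco1a4 at 0.04 ± 0.05. The Schwann cell genes measured, Ncmap and Foxd3, were dim, with mean signals of 6.94 and 6.91, and Ncmap had a change of -0.02 ± 0.07.

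Of 6 choroid plexus genes 0 were called, and Ttr varied greatly between arrays, at 11.40 ± 1.69 in R6/2 and 11.60 ± 1.81 in wild-type (SD, n = 7 each). Of 5 cortical genes 0 were called, with a median of -0.01. The defining cortical genes Tbr1 and Neurod6 had mean signals of 3.65 and 3.89, near the lowest deposited value, and Nrgn, which striatal neurons also make, had a change of -0.26 ± 0.11. Striatal projection neuron genes, which check the labelled tissue, were mostly bright. Penk, the enkephalin precursor, was the brightest at a mean signal of 11.44, and Pdyn the dimmest at 6.55, below the array medians. Of 9 such genes, 5 fell (Penk, Pde10a, Ppp1r1b, Rgs9 and Drd2), with a median of -0.56, and with the Actb covariate 1 was called and the median was -0.44.

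Within groups the member genes varied together from array to array, to differing degrees. With each value centred on its genotype and cohort, the 36 pairs of members had a median Pearson r of 0.58 over the 14 arrays, given as a description since arrays share dissection, RNA quality and scaling. The pair with the highest r was Ugt8a and Car2 (0.91), followed by Aspa and Mog (0.87), and the lowest was Cldn11 and Mag (-0.25). Ugt8a and Mog, which differed in their genotype change, had an r of 0.80 within groups. All other genes had a median r of 0.06 with the mean of the 9. That sets single genes against a mean, so it is not the same measure as the 0.58 between pairs of genes.

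The genes outside the group that were most like that mean were Gpr37 (r = 0.927), Hspa14 (0.924), Hspa9 (0.923), Nkiras1 (0.918) and Plekhb1 (0.918). Gpr37, a receptor found in oligodendrocytes, had a genotype change of -0.46 ± 0.12 (limma adjusted p = 0.0566), and the changes of Hspa14, Hspa9, Nkiras1 and Plekhb1 were -0.01, -0.02, 0.15 and -0.20. Most like Ugt8a alone were the astrocyte water channel Aqp4 (r = 0.925), Plekhb1 (0.913), Ppp1r3c (0.909), Gpr37 (0.905) and Anln (0.903). Their genotype changes ran from -0.46 for Gpr37 to 0.11 for Anln, and 0 of these 5 were called.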

How the data were processed

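RNA of 14 striatal samples was measured on 1 Affymetrix mouse array each. The deposited table of the authors holds log2 probe set signals, a unit read from its values; the authors' method of summary and normalization was not given in the sources used here. Tests ran on 22626 probe sets, without 64 controls, after the arrays were brought to the same median. Probe sets with 1 platform symbol (20380) were named, with symbols updated by gene ID, and those with several (691) or none (1555) stayed unnamed. A gene is represented by its brightest probe set, passing over cross-hybridising ones where it had another. The fits used limma 3.58.1 in R 4.3.3, with a two-sided moderated test, Benjamini-Hochberg adjustment over all probe sets and genotype and cohort as terms; each cohort, the interaction and the cohort difference were fitted too. The fit was tested on simulated data whose noise was independent between probe sets, so that test does not cover variation that probe sets of an array share.

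The members and lists were chosen with earlier results of these data known. Named were all members, the 4 called genes of smallest p per pathway list with Mal, Gal3st1, Fa2h and Sox10, the brightest gene and any called gene per marker list, and the 5 genes most like the members and Ugt8a. Chosen after values were seen were Qdpr, Klk6, Pmp22, Elovl1, Foxd3, Gja1, Slc1a3, Tbr1, Neurod6, Pdyn and the pair Ugt8a and Mog. Alternatives were the deposited scale, quantile normalization, brighter probe sets, other variance models, array weights, the Actb covariate, no cohort term, gene averages, a threshold of 0.01 and each array left out. Symbols, starts and promoters are RefSeq's on GRCm38.p6. Python 3.11.15 and matplotlib 3.10.9 served for tables and plots.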

Additional observations from a re-analysis of the deposited data

Results flagged for a closer look

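In M.C, the Ugt8a signal of R6/2 replicate 2 was 8.52, apart from the other R6/2 arrays of that cohort at 8.14 to 8.20, with a gap of 0.85 of the group's range. It lies toward the wild-type arrays, whose lowest was 8.80. This was the 1 group flagged of 84 examined, where chance alone gives about 1 in 20, so there were fewer flags than chance would give. A larger share of the range alone did not bring a flag. The wild-type Mag signals of Mith, at 9.87, 10.19 and 9.88, had a larger gap by that measure and were not flagged.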

How the results depend on the processing

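Of the log2 changes of the 21 probe sets under the alternatives, 450 kept direction and side of the threshold, 53 lost the call, 14 gained it and 5 turned direction; the cause was not tested. The turns were Mbp 1425263_a_at with the Actb covariate (0.0933), Mbp 1425264_s_at (0.0003) and Mog (0.0024) in Mith alone, and Mog with 1 array left out (-0.0905 to 0.0269, also 0.0181 without wild-type replicate 4). The 578 calls over both cohorts became 56 with the Actb covariate, 1232 with array weights, 100 without the cohort term and 131 at 0.01, and 280 to 879 with 1 array left out (lowest without wild-type replicate 3, highest without wild-type replicate 5). The 6 member genes became 3 with the Actb covariate (Ugt8a, Mobp and Car2), 1 without the cohort term and 3 at 0.01. They became 4 under quantile normalization (Ugt8a, Cldn11, Mobp and Car2) and 4 to 6 with 1 array left out. The 11 member probe sets became 7 with the Actb covariate and 2 without the cohort term, and 9 to 15 with 1 array left out. In M.C the 558 calls became 371 under quantile normalization and 156 at 0.01, and 242 to 962 with 1 array left out, and the member genes 1 at 0.01 and 1 to 4 with 1 array left out. With 1 array left out, Mith had 0 to 13 calls and the interaction 0 to 7. The cohort difference had 4337 at 0.01. No paired analysis was possible because the labels give no replicate numbers that the genotypes share. Signal depth was not modelled, since raw scans were not analysed here.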
